A study of Mus musculus with 40 samples.

Results

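The circadian clock genes described here are Per1, Per2, Per3, Cry1, Cry2, Nr1d1, Nr1d2, Dbp, Ciart and Tef. They were found by matching the Ensembl identifiers of the table to these symbols, and all 10 were present among 54307 genes. Choroid and retina were taken from the same 20 mice, which gave 40 RNA libraries in 8 groups of 5. The mice had a C57BL/6J background, were of both sexes and lived in a cycle of 12 h light and 12 h dark. Control mice were Tgfbr2 fl/fl littermates without Cre. In Tgfbr2 ΔEC mice the floxed Tgfbr2 alleles were combined with Cdh5-CreERT2, a tamoxifen-inducible Cre recombinase driven by the endothelial Cdh5 promoter. Tamoxifen eye drops were given to every mouse at 6 to 7 weeks of age. Food with PLX5622 (PLX), an inhibitor of the CSF1 receptor that depletes mononuclear phagocytes (MP), was given from the first tamoxifen dose to mice of the + PLX groups, and food without it to the - PLX groups. All eyes received 6 laser burns, and tissue was taken 3 days later, for choroid from the lasered central part alone. The time of day at which each mouse was taken is not given in the sources used here. A difference in that time between groups cannot be told apart from an effect of diet or genotype.

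The circadian clock of a cell is a loop of transcription factors. BMAL1 pairs with CLOCK or NPAS2 and switches on genes that carry an E-box in their promoter, among them the Per and Cry genes, whose proteins gather in the nucleus and block BMAL1 and CLOCK. In a second loop the nuclear receptors REV-ERBα (Nr1d1) and REV-ERBβ (Nr1d2) repress Bmal1. DBP and TEF are output factors that activate genes through D-boxes, where NFIL3 acts against them, and CIART is a repressor of BMAL1 and CLOCK. The transcripts of Dbp, Ciart, Nr1d1 and the Per genes rise and fall steeply over the day in many tissues, with Bmal1 and Clock close to the opposite phase. Per1 is also induced by glucocorticoids and by cAMP signalling. The retina has clocks of its own and they shape its daily changes in light sensitivity.

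The promoters below are shown for 2 reasons. Those of Per1, Ciart, Cry1 and Per3 hold a motif known from this loop, and Per1, Nr1d1 and Nr1d2 are the genes called for the diet in choroid. They are RefSeq windows of GRCm38.p6 over the 250 bases before an annotated start, written in the direction of the gene. Capitals mark a searched motif. The positions are chr11:69098699-69098948 on the + strand for Per1, chr3:95882229-95882478 on the - strand for Ciart, chr10:85185055-85185304 on the - strand for Cry1, chr4:151044666-151044915 on the - strand for Per3, chr11:98775378-98775627 on the - strand for Nr1d1 and chr14:18239107-18239356 on the - strand for Nr1d2, which the later build GRCm39 places on the + strand.
Per1: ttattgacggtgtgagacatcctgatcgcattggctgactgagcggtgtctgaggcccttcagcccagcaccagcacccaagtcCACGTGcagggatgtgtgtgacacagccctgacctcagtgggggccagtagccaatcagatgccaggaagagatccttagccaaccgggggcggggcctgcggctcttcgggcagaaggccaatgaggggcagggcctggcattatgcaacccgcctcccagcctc
Ciart: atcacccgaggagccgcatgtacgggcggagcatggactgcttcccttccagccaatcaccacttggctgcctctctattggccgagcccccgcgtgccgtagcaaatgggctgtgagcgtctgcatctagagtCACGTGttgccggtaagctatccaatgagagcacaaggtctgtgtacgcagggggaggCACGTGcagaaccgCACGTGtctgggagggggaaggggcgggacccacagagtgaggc
Cry1: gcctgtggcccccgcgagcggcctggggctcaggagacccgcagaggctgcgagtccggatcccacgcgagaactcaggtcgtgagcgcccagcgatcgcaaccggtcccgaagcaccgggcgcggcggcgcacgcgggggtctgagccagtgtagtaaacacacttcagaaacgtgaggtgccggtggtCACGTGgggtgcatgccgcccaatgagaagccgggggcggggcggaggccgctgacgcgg
Per3: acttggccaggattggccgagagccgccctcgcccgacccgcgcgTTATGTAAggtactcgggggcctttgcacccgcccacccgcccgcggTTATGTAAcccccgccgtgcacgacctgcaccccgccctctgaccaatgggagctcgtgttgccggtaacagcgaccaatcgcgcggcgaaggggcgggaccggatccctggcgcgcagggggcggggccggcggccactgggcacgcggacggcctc
Nr1d1: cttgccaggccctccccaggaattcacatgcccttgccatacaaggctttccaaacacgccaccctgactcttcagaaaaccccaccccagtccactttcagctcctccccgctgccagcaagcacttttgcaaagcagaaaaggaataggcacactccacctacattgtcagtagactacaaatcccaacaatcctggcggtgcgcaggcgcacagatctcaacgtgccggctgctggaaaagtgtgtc
Nr1d2: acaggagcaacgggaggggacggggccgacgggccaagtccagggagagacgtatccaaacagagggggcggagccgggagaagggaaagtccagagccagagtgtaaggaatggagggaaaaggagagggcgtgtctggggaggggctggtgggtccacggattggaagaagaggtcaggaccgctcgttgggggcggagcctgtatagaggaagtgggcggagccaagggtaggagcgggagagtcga

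Searched on both strands, the E-box CACGTG was present in 6.02% of 32851 windows of the same length. Ciart held 3 of them, 116, 58 and 44 bases before its start, Cry1 held 1 at 60 bases and Per1 held 1 at 166 bases. Tef, not printed, had 2 windows with an E-box at 127 and at 138 bases. Per3 held the D-box TTATGTAA at 205 and 158 bases, a motif of 0.819% of all windows. The other motifs searched were TTACGTAA (0.113% of windows), the ROR element TAGGTCA (2.23%), the cAMP element TGACGTCA (1.55%) and the palindromic glucocorticoid response element (0.00913%). None of them was found in these windows, and the windows of Nr1d1, Nr1d2, Dbp and Cry2 held none of the motifs. A match is a description of the letters and no match says nothing about binding. In all, 9 of 10 genes had a window, all but Per2. They had 11 windows, of which 5 held an E-box, and the second window of Per1 held none of the motifs.

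The deposited values are normalized counts, that is, reads per gene divided by a size factor of the library. Each library held about 20940000 to 30420000 reads. Each tissue matched its markers. All 10 rod and all 5 retinal pigment epithelium (RPE) genes listed differed between the tissues, rods being lower and RPE genes higher in choroid. Rod transcripts were still present in every choroid, and their summed level ranged from 3999 to 136560 normalized counts. Summed skeletal muscle transcripts ranged from 17781 to 150959 in choroid. PLX lowered 8 of 9 tested MP genes in choroid, where their sum was 29192 to 36053 without and 9437 to 11948 with it, and all 9 in retina. Tgfbr2 itself did not differ by genotype in choroid (log2 difference -0.05, adjusted p = 0.925 without PLX and 0.02, adjusted p = 1 with PLX). In 5 libraries long transcripts were low relative to short ones. There, the correlation across genes between exon length and the deviation from the tissue's mean (the length correlation) lay between -0.431 and -0.295, against -0.183 to 0.296 in the other 35. They were the choroid of control + PLX mouse 12 and the retinas of mice 2 and 3 (control - PLX), 7 (Tgfbr2 ΔEC - PLX) and 11 (control + PLX). Values without them are given beside many, but not all, of the diet, genotype and correlation results that they change.

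The same genes led the order of levels in both tissues. Per kilobase of exon, Nr1d1 was highest in choroid, with 1313 ± 400 normalized counts (SD, n = 20), followed by Dbp with 895.9 ± 258.5. Tef (604.2), Nr1d2 (443.3), Per1 (282.2), Per3 (173.3), Cry2 (134.9), Per2 (120.4), Cry1 (82.9) and Ciart (60.2) came next, and the mean ± SD of every gene overlapped that of the next in this order. In retina Nr1d1 stood at 1442 ± 153.9 per kilobase, above Dbp at 926.5 ± 247, and these intervals did not overlap. Tef (723.7) and Nr1d2 (607.6) followed, then Cry2 (338.6), Per1 (314.2), Per3 (281.1) and Cry1 (235.0), with a gap beyond the SDs between Nr1d2 and Cry2. Per2 (92.9) and Ciart (88.9) were the lowest and lay beyond the SDs from Cry1. Nr1d1 on chr11:98658752-98666188 (GRCm39) shares 1694 bases, 52.25% of its exons, with Thra on the opposite strand. The libraries were stranded, but the strand setting of the quantification is not given in the sources used here, so reads of Nr1d1 and of Thra over these bases cannot be told apart here.

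**Figure D1:**
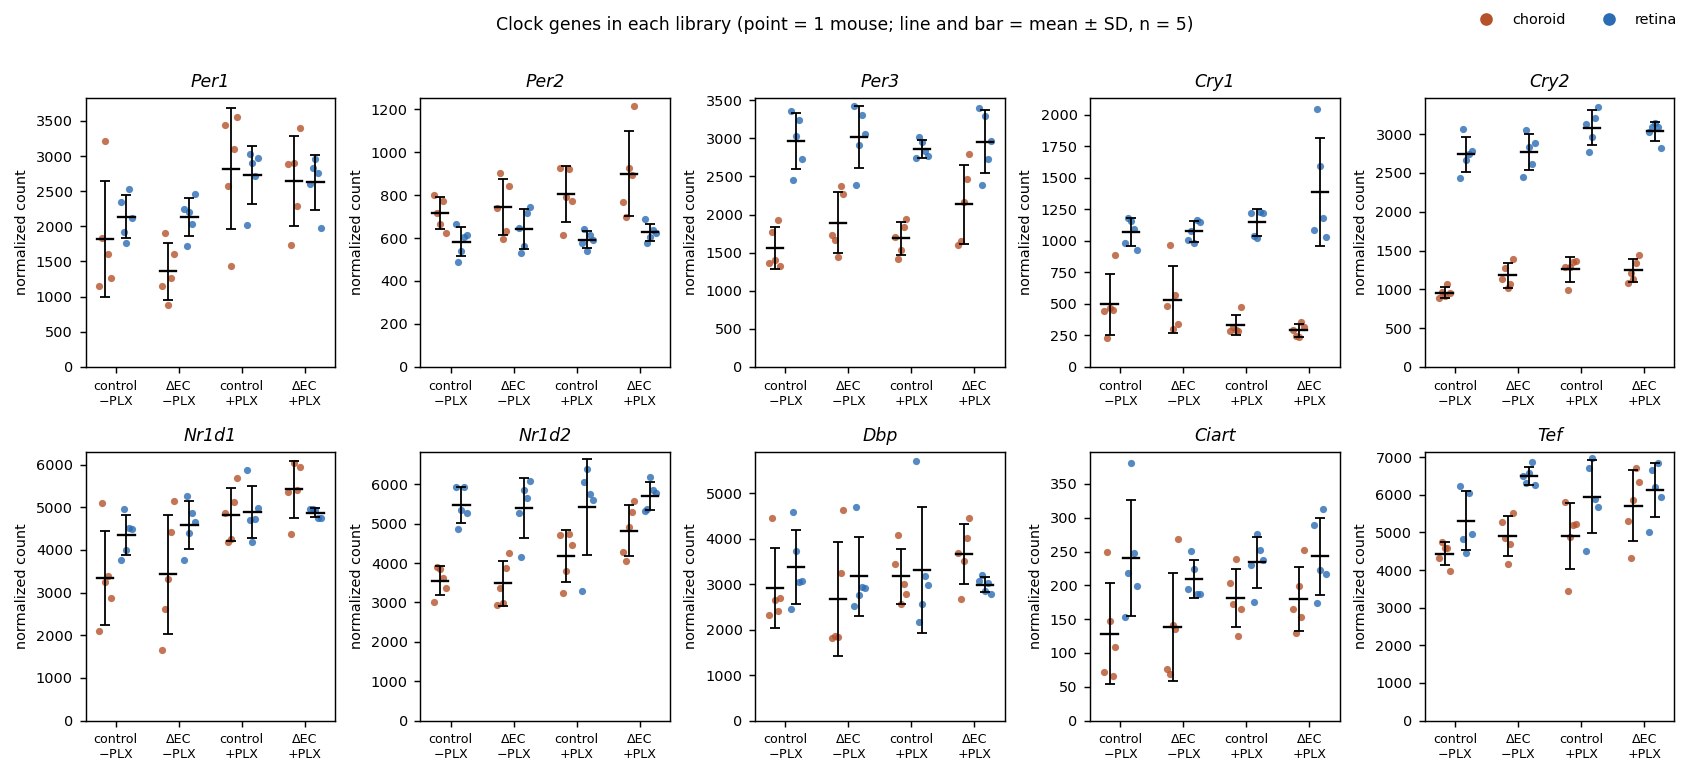
Normalized count of the 10 clock genes in each of the 40 libraries, on linear axes from 0, by genotype and diet and coloured by tissue. Each point is 1 mouse, and the line and bar give mean ± SD of 5 mice. Choroid points of Per1, Nr1d1 and Nr1d2 sit higher with PLX, and Cry1 and Cry2 sit lower in choroid than in retina.

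Most clock genes were lower in choroid than in retina. The limma fit over 40 libraries called 9 of the 10 (adjusted p at or under 0.05), 8 lower and Per2 higher in choroid, where 82% of all genes tested were called, 40.8% higher and 41.1% lower. Of the 10 genes the 2 Cry genes had the largest values. Cry1, a strong repressor of BMAL1 and CLOCK, ranged from 229.6 to 965.7 normalized counts in choroid and from 924.2 to 2043 in retina, with medians of 331 and 1124. The ranges overlapped only through the choroid of mouse 7, and the log2 difference of choroid from retina was -1.60 (SE 0.12, adjusted p = 9.76e-15). Its paralog Cry2 spanned 885.2 to 1449 in choroid and 2432 to 3344 in retina, with no overlap, and the log2 difference was -1.34 (SE 0.05). Per3 (-0.72), Ciart (-0.65), Nr1d2 (-0.47) and Tef (-0.26) were lower in choroid as well. Per2 was 0.36 higher (SE 0.07), and Dbp did not pass (-0.07, adjusted p = 0.600). Per1 (-0.26, adjusted p = 0.0373) and Nr1d1 (-0.21, adjusted p = 0.0466) were near the threshold. With the mouse as a block Per1 was at adjusted p = 0.0704, and Nr1d1 passed in 14 of 30 other settings. When every library was scaled to the same total, all genes shifted by a median of -0.12, and Per2 remained higher by 0.24.

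The activators of the loop split by tissue. Bmal1 had a log2 difference of -1.77 and ranged from 461.7 to 930.3 normalized counts in choroid and from 1994 to 2645 in retina. Npas2, which can take the place of CLOCK, was 1.75 higher in choroid, and Clock had a difference of -0.48. Nfil3, the opponent of DBP and TEF, was at -0.29. Of 23 further genes of the clock pathway, 10 were higher and 9 lower in choroid, a share near the 82% called over all genes. In bulk tissue, a difference in the share of cells and one in RNA per cell cannot be told apart.

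In choroid, PLX was accompanied by higher levels of Per1 and of both REV-ERB genes. Of the 10 genes 3 passed the test, all higher with PLX, where 7.13% of the genes tested were called, 2.07% higher and 5.06% lower. The median log2 difference of all 10 was 0.29 and 9 were positive, while the median of all genes was 0.0005. Per1, a repressor of BMAL1 and CLOCK (chr11:68986035-69002300, + strand), had 1156, 1837, 3219, 1611 and 1270 normalized counts in control - PLX and 1152, 1911, 876, 1259 and 1605 in Tgfbr2 ΔEC - PLX choroids. With PLX it had 3444, 2579, 1430, 3102 and 3550 in control and 2880, 1740, 2908, 2290 and 3403 in Tgfbr2 ΔEC choroids. Above 1911 lay 8 of the 10 choroids with PLX and 1 of the 10 without, mouse 3, so the diets overlapped. The difference was 1.76-fold (log2 0.82, SE 0.20, adjusted p = 0.0118, exact permutation p = 0.00268). Within the genotypes it was 0.97 in Tgfbr2 ΔEC mice (exact permutation p = 0.0159) and 0.66 in controls (exact permutation p = 0.127).

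Nr1d1, which encodes REV-ERBα, had 2109, 5111, 3254, 3397 and 2868 normalized counts in control - PLX and 1657, 2616, 3312, 4425 and 5159 in Tgfbr2 ΔEC - PLX choroids. With PLX the values were 4871, 4191, 4259, 5133 and 5684 in control and 5367, 4371, 6038, 5397 and 5944 in Tgfbr2 ΔEC choroids. Of the 10 choroids without PLX 7 lay below the lowest choroid with it, and mice 2, 9 and 10 lay within its range. The difference was 1.59-fold (log2 0.67, SE 0.17, adjusted p = 0.0169, exact permutation p = 0.00123), and it was 0.58 in controls and 0.76 in Tgfbr2 ΔEC mice (exact permutation p = 0.0317 and 0.0238). Nr1d1 passed in all 32 other settings, with adjusted p between 0.00416 and 0.0422. Thra, which overlaps it, was at 0.12 with adjusted p = 0.518.

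Nr1d2, which encodes REV-ERBβ (chr14:4230545-4266624), had 3009, 3908, 3859, 3612 and 3358 normalized counts in control - PLX and 2935, 3379, 2977, 3870 and 4268 in Tgfbr2 ΔEC - PLX choroids. With PLX it had 4721, 3227, 3787, 4738 and 4469 in control and 4269, 4044, 4923, 5300 and 5569 in Tgfbr2 ΔEC choroids. All choroids without PLX lay at or below 4268, and 6 of the 10 with PLX lay at 4469 or higher. The lowest choroid with PLX was that of mouse 12, where long transcripts were low. The difference was 1.28-fold (log2 0.35, SE 0.09, adjusted p = 0.0178, exact permutation p = 0.00255). It was 0.47 in Tgfbr2 ΔEC mice (exact permutation p = 0.0159) and 0.23 in controls (exact permutation p = 0.103). With the length correlation of each library in the fit Per1 (0.73, adjusted p = 0.0517) and Nr1d2 (0.27, adjusted p = 0.0864) lost their calls. With the rod marker score in the fit Nr1d2 (0.34, adjusted p = 0.0564) lost its call too.

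Cry1 was the 1 clock gene with a negative difference. It had 442, 230, 467, 453 and 891 normalized counts in control - PLX and 482, 966, 301, 571 and 342 in Tgfbr2 ΔEC - PLX choroids. With PLX it had 286, 319, 292, 288 and 476 in control and 295, 242, 236, 358 and 320 in Tgfbr2 ΔEC choroids. At or below 358 lay 9 of the 10 choroids with PLX and 3 of the 10 without. The log2 difference of -0.62 (SE 0.21) did not pass across all genes (adjusted p = 0.0905, exact permutation p = 0.0121), and without mouse 2 it was -0.74 with adjusted p = 0.0223.

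The remaining repressors and outputs did not pass in choroid. Cry2 had a log2 difference of 0.23 (adjusted p = 0.0755) and a median of 1040 normalized counts without and 1286 with PLX. Without mouse 12, whose Cry2 was the lowest of its group, it was 0.27 with adjusted p = 0.0139, and without mouse 10 it was 0.26 with 0.0339. Ciart went from a median of 121.8 (66.6 to 269.0) to 168.8 (125.1 to 252.8), and its difference of 0.57 had adjusted p = 0.211. Dbp, a D-box activator, had a median of 2539 (1823 to 4634) without and 3484 (2555 to 4467) with PLX, a difference of 0.35 with adjusted p = 0.259. With the length correlation in the fit Dbp was at 0.55 with adjusted p = 0.0488. Per2 (0.21), Tef (0.17) and Per3 (0.14) had adjusted p of 0.279, 0.329 and 0.566.

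**Figure D2:**
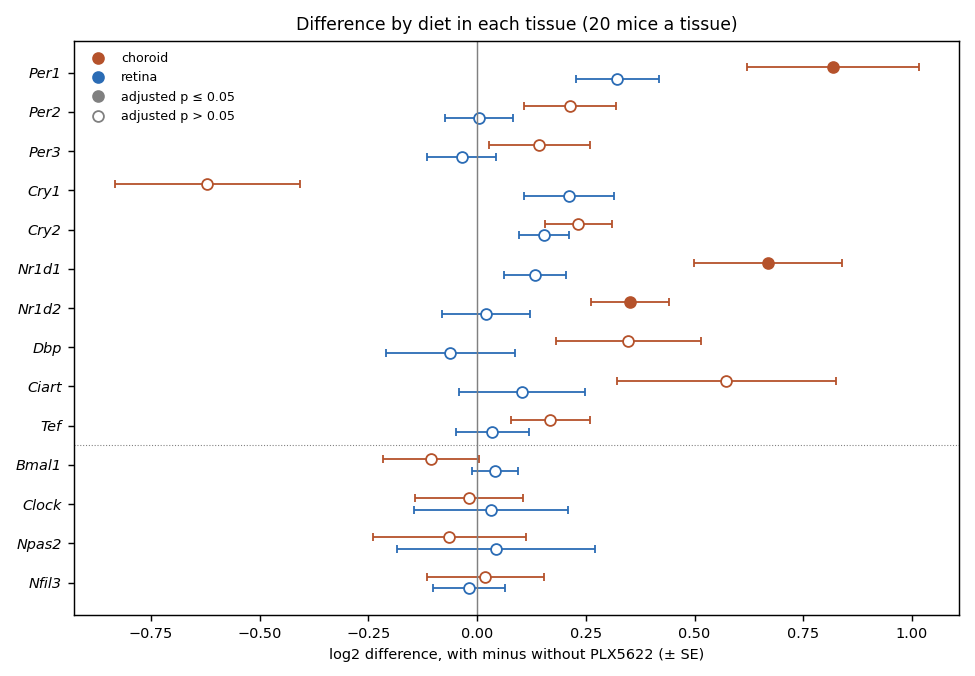
Log2 difference between + PLX and - PLX libraries for the 10 clock genes and for Bmal1, Clock, Npas2 and Nfil3 in choroid and in retina, with bars of 1 SE from the limma fits and filled points at adjusted p at or under 0.05. In choroid 9 of the 10 clock genes are above 0 and Cry1 is at -0.62, and in retina these 10 lie between -0.06 and 0.32.

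The activators did not pass for the diet in choroid. Bmal1, the target of both REV-ERB proteins, was at -0.11 (adjusted p = 0.675), Clock at -0.02, Npas2 at -0.06 and Nfil3, a repressor, at 0.02. With the length correlation in the fit Clock was at -0.29 with adjusted p = 0.00489. Of the 23 further pathway genes 2 passed, both higher with PLX, with a list median of 0.03. This share is near the 7.13% of all genes called in either direction, and 2.07% of all genes were called higher. They were Klf9, a Krüppel-like factor with rhythmic expression (log2 0.62, SE 0.12, adjusted p = 0.00182), and Bhlhe41, a repressor that binds E-boxes (0.22, adjusted p = 0.0169). Bhlhe41 lost its call with the rod score (0.21, adjusted p = 0.0643) or the length correlation (0.17, adjusted p = 0.0702) in the fit. Klf9 ranged from 2952 to 5884 normalized counts without PLX and from 4711 to 7846 with it. Klf9 and Per1 are known glucocorticoid targets. In a list of 10 further glucocorticoid targets all were positive with a median of 0.22, 3 had an unadjusted limma p under 0.05 and 0 passed, and its part in the differences by diet was not tested. Other measures differed with the diet too. The length correlation was positive in 4 of 10 choroids without PLX (0 of 5 control and 4 of 5 Tgfbr2 ΔEC) and in 9 of 10 with it, with medians of -0.058 and 0.096, and with it in the fit Per1 and Nr1d2 lost their calls. Besides the MP genes, all 4 erythroid genes were positive with a median of 1.22, 4 at an unadjusted p under 0.05 and 0 called, and their sums were 293 to 4399 without and 722 to 5133 with PLX. Of the endothelial genes 2 of 5 (Pecam1 and Tek) were higher with PLX, and their summed level was 15890 to 20352 without and 18335 to 24555 with PLX. Of the 10 rod genes 0 passed in the limma fit (3 at an unadjusted p under 0.05), all had negative values, and the rod sums overlapped (3999 to 136560 without and 4414 to 132752 with PLX). Their part in the clock gene results was not tested beyond the fit with the rod score.

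In retina none of the 10 genes passed for the diet, where 1.09% of all genes were called, 0.0172% higher and 1.08% lower with PLX. Before adjustment, Per1 and Cry2 were the 2 genes with p under 0.05. Per1 had 2352, 1924, 1768, 2528 and 2119 normalized counts in control - PLX and 2247, 1726, 2205, 2028 and 2460 in Tgfbr2 ΔEC - PLX retinas. With PLX it had 2026, 3029, 2901, 2723 and 2968 in control and 2603, 2831, 2963, 2757 and 1975 in Tgfbr2 ΔEC retinas. All but mice 11 and 20 of the + PLX groups were above the highest retina without PLX. The log2 difference was 0.32 (SE 0.10, adjusted p = 0.190, exact permutation p = 0.00498). Without mouse 11, where long transcripts were low, it was 0.37 with adjusted p = 0.0335, but without all 5 such libraries it was 0.27 with adjusted p = 0.145. With the GC slope in the fit it was 0.35 (adjusted p = 0.00699), and with the length correlation 0.28 (adjusted p = 0.0269). Cry2 was at 0.15 (adjusted p = 0.498), and its medians were 2764 without and 3088 with PLX. Nr1d1 (0.13) and Nr1d2 (0.02) did not pass. Of the 23 further pathway genes 0 passed in retina by limma, and 3 had an unadjusted p under 0.05.

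The diet difference in choroid was not shown to differ from that in retina for any of the 10 genes, where 1.37% of all genes were called. At an unadjusted p under 0.05 there were 4 (Cry1, Nr1d1, Nr1d2 and Per1). Cry1 had the farthest value, -0.83 (adjusted p = 0.0907), from -0.62 in choroid and 0.21 in retina. It passed without mouse 2 (-0.97, adjusted p = 0.0175) and without mouse 15 (-0.89, adjusted p = 0.0470). Nr1d1 was at 0.54 (adjusted p = 0.229) and Per1 at 0.50 (adjusted p = 0.435). With the mouse as a block the count was 0 as well.

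Loss of Tgfbr2 in endothelial cells did not move a clock gene past the threshold in either tissue, with or without PLX. Few genes of the whole table passed either, 0.00423% in choroid for each diet and 0% in retina. The log2 differences of Tgfbr2 ΔEC from control over the 10 genes lay between -0.37 and 0.30 in choroid without PLX and between -0.18 and 0.31 with PLX. In retina they lay between -0.15 and 0.30 without PLX and between -0.07 and 0.23 with PLX. At an unadjusted p under 0.05 there were 2 values. The first was Cry2 in choroid without PLX, with 885, 965, 912, 1068 and 948 normalized counts in control and 1130, 1281, 1013, 1075 and 1397 in Tgfbr2 ΔEC mice. The groups overlapped by 1 mouse on each side, and the difference was 0.30 (adjusted p = 0.329, exact permutation p = 0.0159). Retinal markers differed in the same comparison. The 10 rod genes had a median of 2.63, all positive, with 0 called and 10 at an unadjusted p under 0.05, and the 6 inner retina genes had a median of 2.36. With the rod score in the fit Cry2 was at 0.29 (adjusted p = 0.9998), and with group means removed it had r = 0.006 with that score in choroid. The part of these markers was not tested beyond that. The second was Tef in retina without PLX, with 6249, 4838, 4461, 6046 and 4973 normalized counts in control and 6496, 6322, 6576, 6863 and 6252 in Tgfbr2 ΔEC mice. The groups did not overlap, and the difference was 0.30 (adjusted p = 0.985, exact permutation p = 0.00794, the smallest this test can give). Long transcripts were low in the 2 lowest controls, mice 2 and 3, and in Tgfbr2 ΔEC mouse 7. Without the libraries of this kind the difference was 0.19 (adjusted p = 0.943). The interaction of genotype with diet was called for 0 of the 10 genes in both tissues, as for 0% of all genes, and its values ranged from -0.40 to 0.31 in choroid and from -0.22 to 0.25 in retina, with 0 at an unadjusted p under 0.05. The 23 further pathway genes gave 0 calls for genotype by limma, with 3 at an unadjusted p under 0.05 in choroid without PLX and 0 in the other 3 comparisons. No clock gene was called for genotype or interaction in any other setting.

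When the 4 genotype and diet groups of a tissue were ordered by mean for each gene, 60 pairs of neighbouring groups arose, and in 0 of them were the groups farther apart than their SDs (mean ± SD not overlapping). The highest and the lowest group of a gene were farther apart than their SDs in choroid for Per1, Cry2, Nr1d1, Nr1d2 and Tef, and in retina for Tef. For Per1 these were control + PLX (mean 2821 normalized counts) and Tgfbr2 ΔEC - PLX (mean 1361).

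Mice of the same group differed more in choroid than in retina for most clock genes. The SD within groups on the log2 scale was 0.61 for Ciart in choroid, higher than in 91.4% of 14434 genes with a mean of at least 50. Cry1 (0.52), Per1 (0.49), Nr1d1 (0.42) and Dbp (0.41) also lay above the median of 0.24, and Per3 (0.28) and Per2 (0.25) lay nearer to it. Tef (0.21), Nr1d2 (0.21) and Cry2 (0.17) lay below it. In retina Dbp (0.36) and Ciart (0.33) were the most variable of the 10, against a median of 0.27 over 13825 genes. Without the 4 retinas set apart, which held the 4 highest Dbp levels, Dbp was at 0.16, below a median of 0.19, and Ciart at 0.29. With all 20 retinas Cry2 (0.11) was steadier than all but 2.94% of the genes. Bmal1 had an SD of 0.08 in retina, lower than in all but 0.615%, while Clock (0.44) and Npas2 (0.54) lay above the median. Without the 4 retinas Clock was at 0.20 and Npas2 at 0.50, and the share of genes with a lower SD was 5.69% for Bmal1 and 8.48% for Cry2.

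Whether the 2 tissues of a mouse moved together, as a shared time of collection could make them do, was tested across the 20 mice after the mean of each group had been removed. No clock gene passed, where 0.414% of 21236 genes were called. The median Pearson r of the 10 genes was 0.01, against -0.02 for all genes. Without the mice of the 5 libraries with low long transcripts it was 0.14, against 0.07 for all genes. It was 0.16 against 0.06 with the GC slope removed, and 0.11 against 0.05 with the length correlation removed. Nr1d1 had r = 0.55 (permutation p = 0.0397) and Spearman's rho = 0.43 (permutation p = 0.104), with adjusted p = 0.678. Without mice 1 and 6, the farthest in choroid, r was 0.16. Without the 5 mice of the libraries with low long transcripts it was 0.84 (adjusted p = 0.125), and it was 0.64 with the length correlation removed, 0.62 with the GC slope removed and 0.17 with the rod score removed. Per1 had r = -0.53 (permutation p = 0.0304) and rho = -0.37 (permutation p = 0.141), and r was -0.61 without mice 8 and 15. It was -0.16 without the 5 mice just named, -0.18 with the length correlation removed and 0.13 without removal of the group means. Without that removal Nr1d1 was at 0.65 (adjusted p = 0.102), Cry2 at 0.58 and Cry1 at -0.47. The remaining clock genes then lay between -0.05 and 0.13. Removal of the group means also takes out any difference in collection time between groups. Cry2 had r = 0.40 (permutation p = 0.106) and rho = 0.36 (permutation p = 0.158). Its r was 0.55 without mice 1 and 20 and 0.15 without the 5 mice of the libraries with low long transcripts. It was 0.35 with the length correlation removed, 0.39 with the GC slope removed and 0.09 with the rod score removed. Dbp had r = 0.11 (permutation p = 0.693) and rho = 0.18 (permutation p = 0.463). Its r was 0.14 without mice 6 and 10 and 0.30 without the 5 mice of the libraries with low long transcripts. It was 0.48 with the length correlation removed, 0.34 with the GC slope removed and -0.38 with the rod score removed. Permutation p-values were computed for 84 relations in all, and no clock gene was called in 34 other settings.

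**Figure D3:**
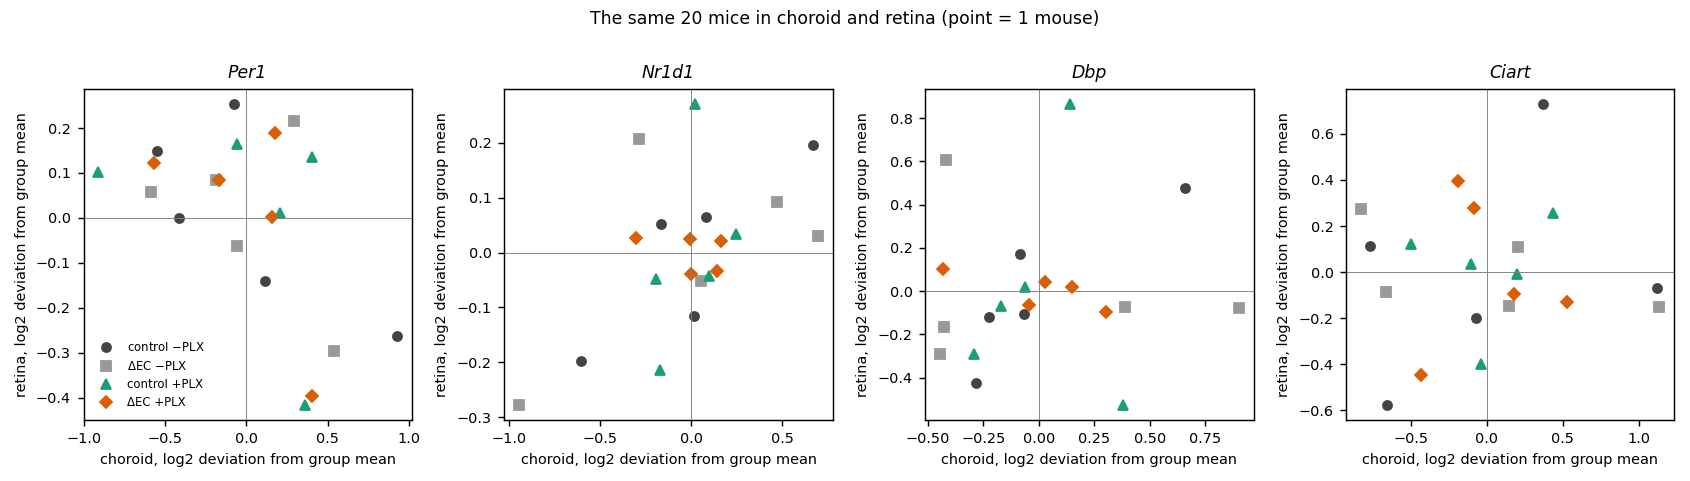
Level in choroid against level in retina of the same mouse, both as log2(normalized count + 1) after removal of the group mean, for Per1, Nr1d1, Dbp and Ciart in 20 mice. Nr1d1 has r = 0.55, which is 0.16 without mice 1 and 6 and 0.84 without the 5 mice of the libraries with low long transcripts. Dbp has r = 0.11, which is 0.30 without these 5 mice. It is 0.48 with the length correlation removed and -0.38 with the rod score removed.

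Within choroid, no clock gene passed for a correlation with Dbp from mouse to mouse. Of the other 9 genes 8 had a positive r, with a median of 0.34 against 0.004 for all genes, and 0 were called, where 0.0508% of 23618 genes were (0.0296% with a positive r). Ciart had r = 0.74 (permutation p = 0.00236; rho = 0.56, permutation p = 0.0343), and 0.61 without mice 6 and 10. Nr1d1 had r = 0.74 (permutation p = 0.00609; rho = 0.65, permutation p = 0.0123), and 0.68 without these mice. Both had adjusted p = 0.147. Nr1d2 (0.57) and Per3 (0.54) followed, and Cry1 was at -0.31. Clock and Bmal1 had the opposite sign, and Npas2 was at 0.11. Clock had r = -0.76 (permutation p = 0.00049; rho = -0.63, permutation p = 0.0106) and Bmal1 r = -0.70 (permutation p = 0.00071; rho = -0.66, permutation p = 0.00429), with adjusted p = 0.124 and 0.169. They were -0.67 and -0.63 without mice 6 and 10. Without mouse 10 alone 6 of the 9 genes had a positive r and 2 an unadjusted p under 0.05, against 8 and 4 with it, and 0 of all genes were called. Of the 23 further pathway genes 0 were called.

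These values moved with the length correlation and the GC slope of the libraries. With the length correlation removed, the median r with Dbp in choroid became 0.71, Nr1d2 reached 0.92 (adjusted p = 0.00519) and Clock -0.91 (adjusted p = 0.0103), while Ciart was at 0.72 and Bmal1 at -0.69. With the GC slope removed the median was 0.61, Nr1d2 was at 0.83 (adjusted p = 0.601) and Clock at -0.51 (adjusted p = 0.969), and 0 of 23618 genes were called by the test of Pearson's r (1209 at an unadjusted p under 0.05). Without the choroid of mouse 12, Nr1d2 was at 0.82 (adjusted p = 0.0831), Nr1d1 at 0.81, Ciart at 0.77 and Clock at -0.83, and the median was 0.55. The choroid of mouse 12 had a Dbp level of 4076 normalized counts, the highest of its group, and an Nr1d2 level of 3227, the lowest.

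**Figure D4:**
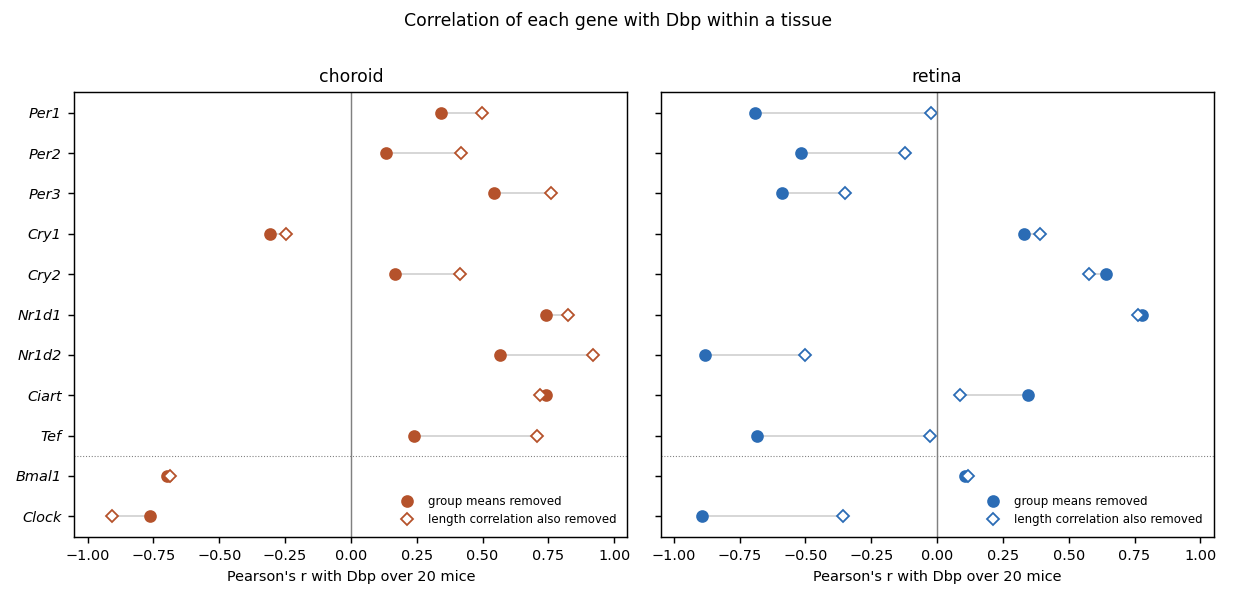
Pearson r of each other clock gene and of Bmal1 and Clock with Dbp over 20 mice, in choroid and in retina. Circles have the group mean removed and diamonds the length correlation as well. As circles, Nr1d2 is at 0.57 in choroid and at -0.88 in retina, and Nr1d1 is positive in both.

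In retina the relations with Dbp, of clock genes and of all genes, moved with the 4 retinas in which long transcripts were low. Over all 20 mice 6 of 9 genes were called, where 32.8% of 23242 genes were. Nr1d2 (-0.88), Per1 (-0.69), Tef (-0.68) and Per3 (-0.59) were negative, and Nr1d1 (0.78) and Cry2 (0.64) positive. The permutation p was 0.00062 for Nr1d2 (rho = -0.72, permutation p = 0.0008) and 0.00204 for Nr1d1 (rho = 0.59, permutation p = 0.0244), and without mice 7 and 11 r was -0.60 and 0.58. Dbp had its 4 highest retinal levels in these libraries, with 5707 (mouse 11), 4705 (mouse 7), 4586 (mouse 2) and 3722 (mouse 3) normalized counts, and the other 16 lay between 2179 and 3212. Nr1d2, whose exons span 9049 bases against 3470 for Dbp, was at 3295, 4145, 4874 and 5347 in the same retinas. Cry2, with exons of 8585 bases, went the other way and had r = -0.45 with the length correlation. Dbp had r = -0.88 with the length correlation and r = 0.90 with the slope of the deviations on GC content. Without the 4 retinas 0 of the 9 were called, as were 0 of 23238 genes by the test of Pearson's r (2223 at an unadjusted p under 0.05), so the count says nothing particular about clock genes. Nr1d2 was at -0.35, Per1 at -0.01, Tef at -0.42, Per3 at -0.44, Nr1d1 at 0.61 (adjusted p = 0.448) and Cry2 at 0.82 (adjusted p = 0.228). With the rod score removed Nr1d1 was at 0.33 (adjusted p = 0.382) and Cry2 at 0.08 (adjusted p = 0.866), and the rod score had r = 0.81 with Dbp, 0.82 with Nr1d1 and 0.75 with Cry2 in retina. With the length correlation removed 0 were called, where 0.262% of all genes were, and with the GC slope removed 0, where 1.00% were. Among the pathway genes 8 of 23 were called over all 20 mice, 1 of them positive, and Clock had r = -0.89, which was -0.43 without the 4 retinas.

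**Figure D5:**
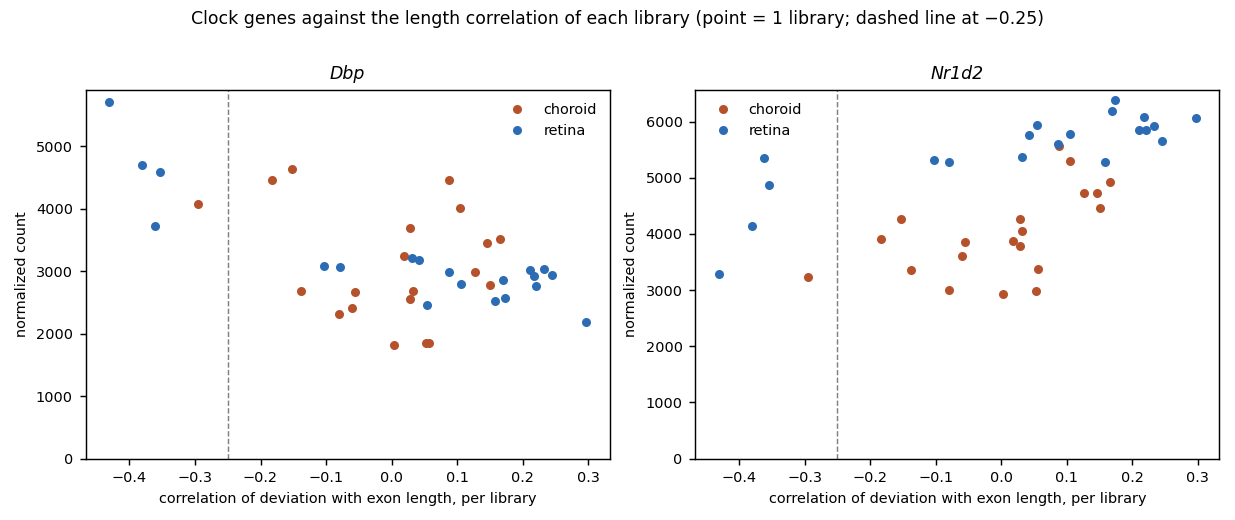
Normalized count of Dbp and Nr1d2 in the 20 retinas and 20 choroids against the length correlation of the library, with 1 point a library and a dashed line at -0.25. The 4 retinas between -0.431 and -0.354 hold the 4 highest retinal Dbp values, 3722 to 5707, and the lowest retinal Nr1d2 value, 3295.

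The genes outside the clock lists whose pattern over mice was most like that of Dbp in both tissues were Bex3, Borcs6, Porcn, Nop53 and Ccdc85b, taken from 11965 protein-coding genes with a mean of at least 50. Bex3 (chrX:135155024-135174400, GRCm39) had r = 0.77 in choroid and 0.96 in retina. Borcs6 had 0.76 and 0.94, and Nop53 0.71 and 0.97. These genes were chosen for these values, and the retinal values include the 4 retinas set apart. Without these the retinal r was 0.79 for Bex3, 0.68 for Borcs6 and 0.86 for Nop53.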

How the data were processed

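RNA of choroid and retina of 20 mice was sequenced as stranded single-read polyA libraries. The authors checked reads with FastQC 0.11.5, quantified them with Salmon 1.10.1 against GRCm39 with annotation vM29 and normalized them with DESeq2 1.36.0. The deposited signal is a normalized count per gene, which is not whole and not scaled to a fixed total. Values fell on whole reads for 47.68% to 75.24% of low values in a library, so reads were not recovered and depth is approximate. Over 15800 genes above 0 everywhere, each of the 40 libraries had a median ratio of 1.008 to the geometric mean, so both tissues had been scaled together.

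Of 54307 identifiers 53700 matched GENCODE vM39 and 607 did not. Groups came from the sample labels. Genes averaging 1 or more were fitted on log2(normalized count + 1) in R 4.3.3 by limma 3.58.1 with its trend option, and an adjusted p (Benjamini-Hochberg over all genes tested) at or under 0.05 was called. This scale understates changes of low genes. A tissue's 4 groups shared 1 fit, without the authors' covariates (sex and a neuronal percentage), and tissue contrasts used all 40 libraries. For single genes, diet labels within genotype, or 5 mice against 5, were relabelled in an exact two-sided permutation test (smallest p 0.00794). Correlations were computed on values centred on the group mean, with 100000 two-sided permutations within groups. Length and GC values used protein-coding genes averaging 50 or more. Mouse numbers are shared by the 2 tissues of a mouse, and both tissues showed the same sex marker pattern in 20 of 20 mice, so the mouse was a block in an alternative fit. The procedures were tested on simulated data. Genes named are the 10 clock genes, Bmal1, Clock, Npas2, Nfil3, pathway genes called for diet, and the 5 genes most like Dbp. These genes, lists and tests were chosen with earlier results of these data known. Python 3.11.15 with scipy 1.17.1 and pandas 2.3.3 was used for the rest. Promoter windows came from RefSeq (GRCm38.p6). Alternatives were other pseudocounts (0.5 and 5), filters, scalings, covariates, the block and leaving out each mouse.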

Additional observations from a re-analysis of the deposited data

Results flagged for a closer look

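In 6 of 80 groups of 5 libraries, 1 library lay far from the other 4 of its group for a clock gene. The measure was the share of the group's range taken up by its gap (limit 0.71). Shares were computed on log2 values, while the levels printed here are normalized counts. Chance alone gives about 1 in 20, or 4 groups. In retina of control + PLX mice, mouse 11 was low for Per1 (2026 normalized counts against 2723 to 3029 in the others, share 0.735) and for Nr1d2 (3295 against 5597 to 6389, share 0.800), and it is the retina in which long transcripts were lowest. In retina of Tgfbr2 ΔEC - PLX mice, mouse 7 was high for Dbp (4705 against 2526 to 2937, share 0.757), and its long transcripts were low too. In choroid of control + PLX mice, mouse 12 was low for Cry2 (986.4 against 1284 to 1371, share 0.802), again with long transcripts low, and mouse 15 was high for Cry1 (475.7 against 286.0 to 318.8, share 0.787). In choroid of control - PLX mice, mouse 2 was high for Dbp (4454.5 against 2316 to 2691, share 0.771). The choroid of mouse 2 and that of mouse 15 were not among the 5 libraries set apart. The cause of these values was not tested.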

How the results depend on the processing

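Of the clock gene counts, those for diet in choroid, genotype, interaction and the correlation across mice stayed within 1.5 times in each alternative run, and no result changed sign while past the threshold. The genes behind the count for diet in choroid did change. With the length correlation in the fit Per1 and Nr1d2 lost their calls and Dbp gained one, and with the rod score Nr1d2 lost its call. Leaving out each mouse gave 3 to 4 genes for diet in choroid, 0 to 1 for diet in retina, 0 to 1 for the diet difference between tissues, 7 to 9 by tissue and 4 to 7 with Dbp in retina. Diet in retina gave 1 gene (Per1) with the GC slope (adjusted p = 0.00699) or the length correlation (0.0269) as a covariate. With Dbp, choroid gave 1 gene with the length correlation removed, and retina gave 3 with the rod score removed and 0 with the GC slope or the length correlation removed or without the 4 retinas. The count by tissue was 9, and it was 7 with every gene above 0 tested and 8 without the 5 libraries. With the mouse as a paired replicate block it was 8, and the diet difference between tissues gave 0. Groups within a tissue share no mouse, so no block applied there. Over single genes 16 alternatives gained and 90 lost a call, and 5772 kept it or their lack of one. The GC slope, length correlation, muscle score and glucocorticoid score, and leaving out the 5 libraries, were chosen after seeing the data. A fit of only the groups compared was run for genotype alone, since diet and interaction use all 4. The causes were not tested. The depth is approximate, and the exact permutation test of 5 mice against 5 cannot go below p = 0.00794.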

Other observations

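The 10 glucocorticoid target genes (Fkbp5, Tsc22d3, Sgk1, Zbtb16, Ddit4, Errfi1, Cdkn1a, Sult1a1, Mt1 and Mt2) were followed because Per1 is induced by the same hormones. All 10 differed between the tissues, 9 higher and 1 lower in choroid, with a median log2 difference of 2.10, where 82% of all genes were called. For the diet 0 passed the limma test in choroid or in retina (3 and 0 at an unadjusted p under 0.05), with medians of 0.22 and 0.14. For genotype 0 passed. In choroid with PLX 3 had an unadjusted p under 0.05, and all 10 had a negative value, with a median of -0.30. Across the 20 mice, with group means removed, Zbtb16 was correlated between choroid and retina at r = 0.57 (permutation p = 0.0181; rho = 0.69, permutation p = 0.00236). Without mice 14 and 15 r was 0.45, and across all genes adjusted p was 0.650. Fkbp5 had r = 0.42 (permutation p = 0.0889) and Tsc22d3 r = 0.38 (permutation p = 0.120). None of Zbtb16, Fkbp5 and Tsc22d3 passed across all genes, and the other genes of the list were not tested by permutation.

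Drd4, Aanat and Adcy1, genes with a daily rhythm in the retina, were all called between the tissues, 1 higher and 2 lower in choroid, again beside 82% of all genes. By limma 0 passed for diet, genotype or their interaction in either tissue. In choroid 1 had an unadjusted p under 0.05 for diet, 2 for genotype without PLX and 2 for the interaction, and in retina 0 had. Of the 10 rod genes 0 were called by limma in choroid for genotype without PLX or for the interaction. Their medians were 2.63, with 10 of 10 at an unadjusted p under 0.05, and 2.17, with 6 of 10. The part of retinal tissue in these values was not tested. The median log2 difference of Drd4, Aanat and Adcy1 by diet was -0.32 in choroid and 0.08 in retina. In choroid the rod genes had a median of -1.09 by diet with 0 of 10 called.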
